A study of Homo sapiens with 6 samples.

Results

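The ATF and CEBP stress factors are transcription factors with a basic leucine zipper (bZIP), and 8 of them were followed here by name among 20033 annotated protein-coding genes: ATF3, ATF4, ATF5, CEBPA, CEBPB, CEBPD, CEBPG and DDIT3. Around them lay 66 of the 89196 accessible regions of the series, where a region is a merge of the peaks of all libraries that overlapped by at least 1 bp, and a region belonged to a gene when it touched the gene body or the 50 kb on either side. Chromatin accessibility was measured by Omni-ATAC, in which a transposase cuts and tags open DNA, in MM.1S, an established human multiple myeloma cell line. There were 3 libraries of cells given 120 nM CB-6644 for 72 h and 3 of cells given DMSO, the vehicle. CB-6644 inhibits the ATPase of RUVBL1 and RUVBL2, subunits that several chromatin remodelers share, and the comparison asks how accessibility near the stress factors differed after that inhibition. Live cells of both groups were isolated by flow sorting before the assay. All libraries are of 1 cell line and 1 dose, and nothing states that replicates came from separate cultures, so p-values measure the spread between these libraries, which may be technical.

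These genes are best known from the integrated stress response. Kinases that sense amino acid shortage, misfolded protein in the endoplasmic reticulum or other stress phosphorylate the initiation factor eIF2, most protein synthesis slows, and ATF4 and ATF5 are translated all the same. ATF4 dimerizes with CEBP proteins, CEBPG and CEBPB among them, on composite ATF-CEBP sites and turns on amino acid and redox genes as well as the genes of ATF3 and DDIT3 (also called CHOP). Plasma cells secrete antibody in bulk and lean on these pathways.

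The deposited lists hold peaks and no read counts. The CB-6644 lists held 58563 to 71781 peaks and the DMSO lists 65569 to 79020. Background tags per kb, recovered from the peak values as a stand-in for depth, ran from 3.20 to 7.05 with CB-6644 and from 6.40 to 9.08 with DMSO. CB-6644 replicate 2 and DMSO replicate 1 reported peaks down to 65 and 91 bp and are called short-fragment libraries, whereas the other 4 started at 131 to 152 bp. These fragment-length sets were drawn from the shortest peak in each list, since fragment length was neither labelled nor measured here. Of 8 plasma cell marker genes, 7 had a promoter region called in every library, and SLAMF7 had one in 5 of 6. Of 9 markers of other cells, CD3E, CD3D and GATA1 had no promoter region, but CD14, SPI1, EPCAM, COL1A1, PECAM1 and PAX5 did in every library, so an open promoter alone did not mark the cell type.

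Peak strength is given here on 3 scales. The percentile is the rank of a peak's -log10 p among all peaks of its own library, with 100 the strongest. The summit pile-up is the number of tags stacked at the peak's summit, recovered from the fold and -log10 p, and is printed relative to the median peak of the same library. The fold enrichment is the pile-up over the local background that the peak caller estimated from the surrounding sequence, so it stays flat where a summit and its surroundings fall together. Groups were compared with limma across the 42089 regions called in all 6 libraries, on log2 fold enrichment and, as a test added after the data were seen, on log2 pile-up. Differences are CB-6644 minus DMSO on the log2 scale with their SE, and adjusted p-values are Benjamini-Hochberg over those 42089 regions. The differences were taken after quantile normalization over those regions, whereas printed pile-ups are scaled by the median of each library's full list. A difference can therefore depart in size or sign from the printed values beside it.

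Promoters, taken as 1000 bp around any annotated start site, were open in every library for 7 of the 8 genes, and CEBPA was the exception. Over all 20007 protein-coding gene symbols the share was 66.3%. Percentiles of the strongest promoter region were below those of every DMSO library in all 3 CB-6644 libraries for ATF3, CEBPB and DDIT3, which is 3 of 7, against 17.1% of the promoters of all genes. For 0 of 7 were they higher throughout, against 1.84%. No promoter of the 7 passed limma on the pile-up in either direction, where 0.905% of all promoters were lower and 0.724% higher, and CEBPB came nearest, at an adjusted p of 0.053. DMSO lists were longer than CB-6644 lists on average, and a percentile depends on the length of its list. Ranked among the 42089 shared regions only, the percentiles of CEBPB and ATF3 stayed apart and those of DDIT3 overlapped. Those of ATF4 became higher in every CB-6644 library. Under that ranking 13.4% of all shared regions were lower throughout and 13.3% higher, and the shares of promoters alone are not given. By percentiles of fold enrichment the mean differences of ATF3 and DDIT3 turned positive, at 2.26 and 3.89 points, against -1.94 and -1.53 by -log10 p. That of CEBPB shrank from -25.3 to -2.93 points, while CEBPD stood at -17.1, against -15.8 by -log10 p.

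The order of the promoters was much the same in both groups. With DMSO the mean percentile was 98.9 ± 0.354 for ATF3, 96 ± 2.36 for CEBPG, 95.5 ± 0.643 for DDIT3, 91.4 ± 1.58 for ATF5, 89.4 ± 1.88 for ATF4, 55.8 ± 3.85 for CEBPB and 33.9 ± 5.63 for CEBPD (SD, n = 3 libraries). Within that order CEBPG and DDIT3 overlapped, as did ATF5 and ATF4, and the other neighbours did not. With CB-6644 the means were 97.1 ± 1.01 for CEBPG, 96.9 ± 1.65 for ATF3, 94 ± 0.972 for DDIT3, 91.3 ± 0.498 for ATF4, 88.9 ± 1.13 for ATF5, 30.5 ± 9.96 for CEBPB and 18.1 ± 9.68 for CEBPD. There CEBPG overlapped ATF3, and CEBPB overlapped CEBPD.

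**Figure D1:**
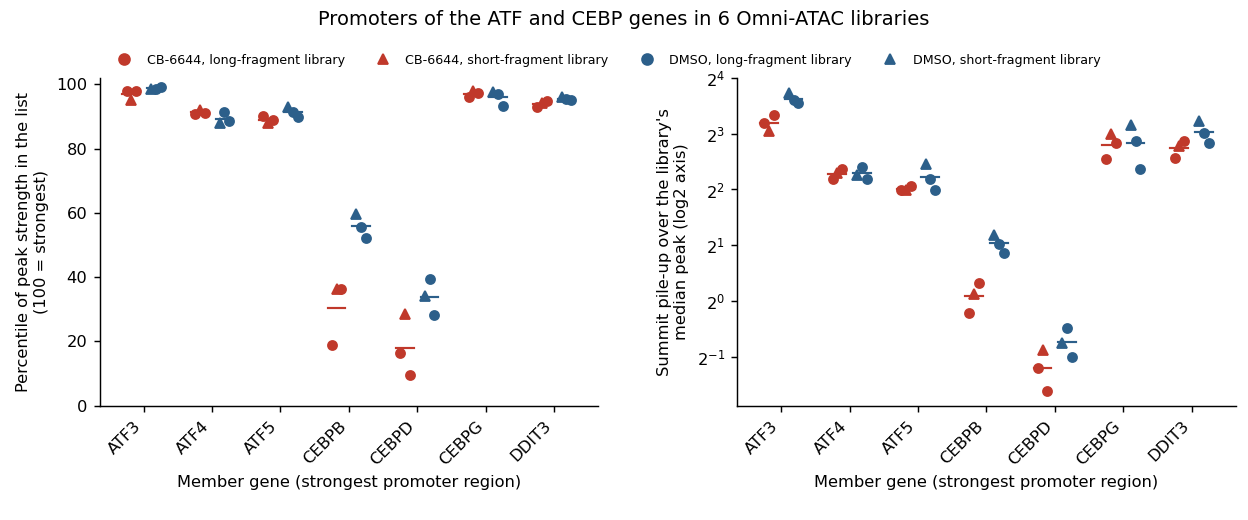
Strongest promoter region of each gene with one, as the percentile of peak strength within the library (left, linear axis) and as the summit pile-up over the library's median peak (right, log2 axis). Points are single libraries, triangles are the 2 short-fragment libraries and bars are group means; ATF3, ATF4, ATF5, CEBPG and DDIT3 sit above the 87th percentile in every library, whereas CEBPB and CEBPD sit lower and CEBPB separates the groups.

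CEBPB, a CEBP factor of inflammatory and IL-6 signalling that also pairs with ATF4, had the largest difference between groups among the member promoters, both in percentile of -log10 p and in pile-up, though not in percentile of fold. The gene is intronless and lies at chr20:50190830-50192668 on the plus strand. Its strongest promoter region, chr20:50190035-50191119, peaked 304 bp upstream of the start site, inside an intron of the divergent non-coding gene CEBPB-AS1. The pile-up there was 0.864, 1.09 and 1.25 times the median peak in CB-6644 replicates 1, 2 and 3. In DMSO replicates 1, 2 and 3 it was 2.27, 2.04 and 1.82. Each CB-6644 library was therefore below each DMSO library, with means of 1.07 ± 0.194 and 2.04 ± 0.224 (SD, n = 3). The log2 difference was -0.66 (SE 0.18, limma, adjusted p = 0.053), just short of the threshold. It passed with the fragment-length set as a term (adjusted p = 0.026 by limma), a fit that called 10.6% of all regions lower and 9.96% higher in pile-up, and did not in the 4 long-fragment libraries (-0.64, adjusted p = 0.083 by limma). With 1 library left out at a time it passed in 0 of 6 fits (adjusted p from 0.054 to 0.18 by limma). It did not pass with the replicate block (0.11) or an intensity trend (0.057), was at the threshold with median centring (0.05), and passed with lists trimmed to equal length (0.044), all by limma.

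The neighbourhood of that summit was lower as well. The local background was 7.26, 9.41 and 9 times the genome-wide background in CB-6644 replicates 1, 2 and 3 and 15.1, 12.3 and 11.2 times in DMSO replicates 1, 2 and 3 (exact permutation test, two-sided, p = 0.1, which is as small as 3 against 3 libraries can reach). The groups did not overlap. The fold over that local background differed by 0.01 (SE 0.18, limma, adjusted p = 0.99), and the part of the local background in the pile-up difference was not tested. The percentile of the region was 19, 36.3 and 36.3 with CB-6644 and 59.8, 55.6 and 52.1 with DMSO, a mean difference of -25.3 points (exact permutation test, two-sided, p = 0.1).

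A second promoter region of CEBPB, chr20:50191250-50192151, peaked 490 bp downstream of the start site in the coding exon. Its pile-up was level, at 1.07, 1.09 and 1.33 times the median peak with CB-6644 and 2.19, 1.21 and 0.982 with DMSO, and the groups overlapped. Its fold was 7.65, 8.49 and 7.63 with CB-6644 and 8.35, 4.54 and 3.93 with DMSO. DMSO replicate 1, a short-fragment library, stood with the CB-6644 libraries, and the other DMSO libraries were lower. The log2 fold difference of 0.67 (SE 0.20, limma, adjusted p = 0.17) was the largest of any region near the members. It passed when the fragment-length set was a term (adjusted p = 0.017 by limma) and in the long-fragment libraries alone (0.88, adjusted p = 0.02 by limma). Local background was lower with CB-6644 here too, at 8.15 ± 1.31 against 12.6 ± 2.25 times the genome background (SD, n = 3). Both summits lie in the same promoter, so their local backgrounds may share sequence and may not be independent measurements. A region over the 3′ untranslated end of the gene was called in only 3 of 6 libraries, and that summit lay near a match to the ATF-CEBP consensus.

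Farther from CEBPB the strongest region outside promoters lay 24.6 kb upstream and had percentiles of 51, 55.1 and 47.7 with CB-6644 and 63.5, 60.3 and 54.2 with DMSO, which overlapped. A region 18.3 kb upstream at chr20:50172259-50172949, over an exon of the non-coding gene LINC01273, stood at 35.9, 28.8 and 37.4 with CB-6644 and 54.3, 52.5 and 46.4 with DMSO. It was lower in every CB-6644 library, while its pile-up difference of -0.31 (SE 0.13) missed the threshold by limma (adjusted p = 0.2).

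The bases around both CEBPB summits are shown because the upstream region carries the lower pile-up and the coding region the higher fold. Each run is the 81 bases centred on the summit, on the plus strand of hg38, at chr20:50190486-50190566 and chr20:50191280-50191360. Neither run held a match to any consensus capitalized in the runs of the other genes given here, and both were rich in G and C, at 77.6% and 76.1% over the 201 bases around the summit.
CEBPB upstream: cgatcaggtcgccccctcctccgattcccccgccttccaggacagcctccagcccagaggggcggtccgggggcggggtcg
CEBPB coding exon: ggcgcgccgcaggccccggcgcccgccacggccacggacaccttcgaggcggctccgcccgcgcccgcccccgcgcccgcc

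**Figure D2:**
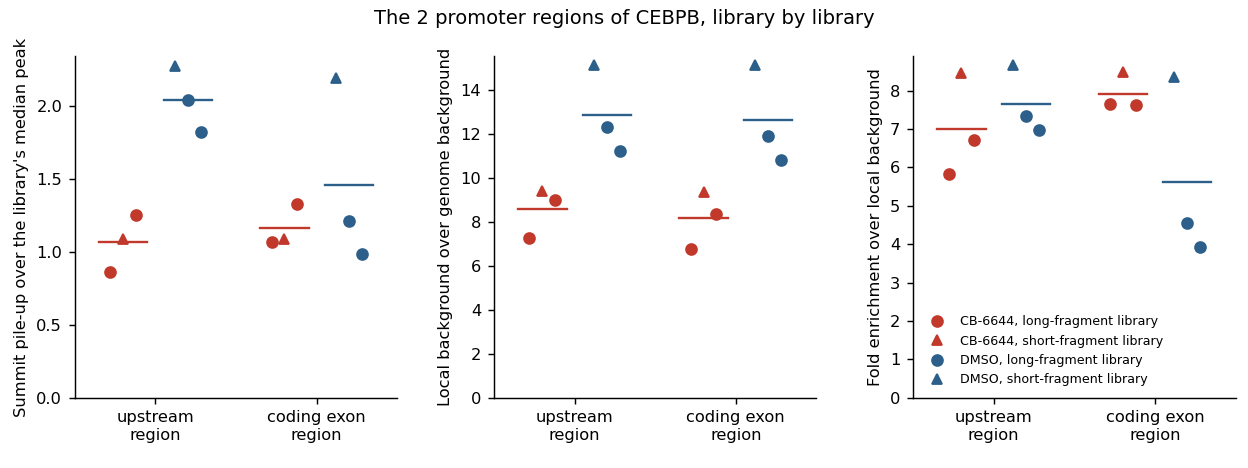
The upstream and the coding exon region of the CEBPB promoter in each library, as summit pile-up over the library's median peak, as local background over genome background, and as fold enrichment, which relates the summit to its local background. Points are libraries, triangles the short-fragment ones and bars group means; the upstream pile-up and both local backgrounds are lower in every CB-6644 library, and the fold of the coding region is lower in DMSO replicates 2 and 3.

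ATF3, a stress-induced bZIP factor that ATF4 switches on, had the strongest promoter of the family with DMSO. The gene spans chr1:212565334-212620777 on the plus strand with 7 annotated start sites. The region chr1:212607961-212609581 covered the main start site, and its pile-up was 9.14, 8.27 and 10.1 times the median peak in CB-6644 replicates 1, 2 and 3. In DMSO replicates 1, 2 and 3 it was 13.3, 12.1 and 11.8. The groups did not overlap, yet the log2 difference of -0.30 (SE 0.17) missed the threshold by limma (adjusted p = 0.33), and the fold moved the other way, by 0.16 (SE 0.16, limma, adjusted p = 0.67). Percentiles were 97.8, 95 and 97.9 with CB-6644 and 98.6, 98.7 and 99.3 with DMSO.

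The ATF3 summit is shown because it lay 22 bp from a match to the ATF-CEBP consensus TGATGNAA, 203 bp upstream of the main start site. The same gene holds the single full cAMP response element (CRE, TGACGTCA) of the 66 regions, in a region called in all 6 libraries 49.7 kb upstream at chr1:212558621-212559336, over an exon of a non-coding gene. The full CRE was thus present in 1.52% of the 66 regions, against 0.664% of all regions. Capitals mark the ATF-CEBP and CRE matches on either strand, in plus-strand runs of hg38 at chr1:212608500-212608580 and chr1:212559046-212559126.
ATF3 promoter: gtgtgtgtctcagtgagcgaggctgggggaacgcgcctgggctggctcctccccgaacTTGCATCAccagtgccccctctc
ATF3 far upstream: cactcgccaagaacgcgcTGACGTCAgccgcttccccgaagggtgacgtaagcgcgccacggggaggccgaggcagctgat

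That far upstream region was the strongest near ATF3 outside any protein-coding promoter. Its pile-up was 3.36, 5.23 and 3.25 times the median peak with CB-6644 and 6.49, 4.93 and 3.77 with DMSO. The groups overlapped, and the difference was -0.14 (SE 0.19, limma, adjusted p = 0.73). Among the 17 regions of the ATF3 locus 10 were called in every library. Of those 10, 4 had lower percentiles in each CB-6644 library, the promoter included, against 24.6% of all regions called in every library. The 1 of these 4 that lay 12.2 kb upstream overlapped when ranked among the shared regions only. The widest of the 4, 48.2 kb downstream in an intron of the non-coding gene LINC02773, stood at 72.1, 55.3 and 65.9 with CB-6644 and 78.7, 79.8 and 78.4 with DMSO (pile-up -0.42, SE 0.20, limma, adjusted p = 0.25). Its fold difference of -0.26 (SE 0.13, limma, adjusted p = 0.41) was the largest at this locus.

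The locus of ATF3 also held the only region of the family that was called in all 3 libraries of a group and in none of the other. It was CB-6644-only, intergenic, 31.9 kb downstream of the main start site at chr1:212640548-212640733, and weak, with percentiles of 15.6, 7.73 and 5.31 in CB-6644 replicates 1, 2 and 3. Of all regions 0.586% were CB-6644-only and 4.50% were DMSO-only, and near the 8 genes these classes held 1 and 0 regions of 66. A region without a peak was not detected there, which does not show that it was closed. When every list was trimmed to the length of the shortest, this region was no longer CB-6644-only. It is shown as the only group-only region, from chr1:212640622-212640702, plus strand of hg38, and holds no capitalized match.
ATF3 CB-6644-only: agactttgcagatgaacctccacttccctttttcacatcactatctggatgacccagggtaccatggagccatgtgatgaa

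DDIT3 encodes CHOP, a partner of CEBP proteins that promotes cell death under lasting stress. It lies at chr12:57516588-57521737 on the minus strand, and its promoter region chr12:57520015-57520968 is shared with MBD6. The pile-up was 5.93, 6.91 and 7.33 times the median peak with CB-6644 and 9.35, 8.05 and 7.16 with DMSO, which overlapped. The log2 difference was -0.13 (SE 0.13, limma, adjusted p = 0.64). Percentiles ran from 93 to 94.9 with CB-6644 and from 95 to 96.2 with DMSO, a gap that closed when ranked among shared regions. All 7 regions of this locus lay at a promoter of DDIT3 or of a neighbour, so none was left outside promoters, and 6 of them were called in every library. The largest fold difference at the locus, 0.44 (SE 0.30, limma, adjusted p = 0.56), lay at chr12:57522736-57523075 in MBD6, where the percentiles overlapped widely.

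CEBPG, a small CEBP protein without a strong activation domain that binds with ATF4, ranked next to ATF3 with DMSO and level with it with CB-6644. It lies at chr19:33373685-33382686 on the plus strand. The pile-up of its promoter region chr19:33373223-33374264 was 5.82, 8 and 7.12 times the median peak with CB-6644 and 8.95, 7.32 and 5.16 with DMSO. The groups overlapped throughout, and the difference was 0.15 (SE 0.16, limma, adjusted p = 0.64). The strongest of its regions outside promoters, 57.1 kb downstream in an intron of PEPD at chr19:33430742-33431078, stood at pile-ups of 1.16, 2.5 and 1 with CB-6644 and 1.41, 1.11 and 0.536 with DMSO. Its fold difference of 0.34 (SE 0.24, limma, adjusted p = 0.57) was the largest at the locus. Its pile-up difference of 0.85 (SE 0.38, limma, adjusted p = 0.22) passed only with the fragment-length set as a term (adjusted p = 0.033 by limma), and so did that of the PEPD intron region 33.3 kb downstream (0.44, adjusted p = 0.088, and 0.037 with the term, by limma).

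The promoter summits of DDIT3 and CEBPG are shown together because both sit beside a CCAAT box, the site of NF-Y, written in capitals and read here on the minus strand. A CCAAT match also lay within 40 bp of the ATF4 promoter summit, whose bases are not printed. The runs are plus-strand hg38 at chr12:57520603-57520683 and chr19:33373583-33373663.
DDIT3 promoter: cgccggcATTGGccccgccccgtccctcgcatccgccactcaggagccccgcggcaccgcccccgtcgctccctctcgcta
CEBPG promoter: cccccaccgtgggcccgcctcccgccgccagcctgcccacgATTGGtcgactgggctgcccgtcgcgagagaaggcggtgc

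ATF4, the main effector of the response, lies at chr22:39519695-39522683 on the plus strand. The pile-up of its promoter region, chr22:39519605-39520932, was 4.57, 4.91 and 5.15 times the median peak with CB-6644 and 4.76, 5.32 and 4.57 with DMSO. The means were 4.88 ± 0.294 and 4.88 ± 0.391 (SD, n = 3), and the log2 difference after normalization was 0.20 (SE 0.15, limma, adjusted p = 0.5). Percentiles of 90.9, 91.9 and 91.1 with CB-6644 overlapped those of 88.1, 91.5 and 88.5 with DMSO.

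Of the 18 regions around ATF4, 9 were called in every library, and 4 lay at promoters of its neighbours MGAT3, MIEF1 and RPS19BP1. A region at the MGAT3 promoter, 47.9 kb upstream at chr22:39472284-39473020, had pile-ups of 3.52, 3.5 and 3.56 with CB-6644 and 6.46, 5.55 and 5.02 with DMSO. The groups were well apart, and the difference of -0.47 (SE 0.13) had an adjusted p of 0.065 by limma. It passed with the fragment-length set as a term (0.026) and not in the long-fragment libraries (0.098), with the replicate block (0.18) or with median centring (0.13), all by limma. In the other direction, a region of 202 bp over an untranslated part of MGAT3, 30.2 kb upstream at chr22:39490217-39490418, had pile-ups of 0.909, 2.14 and 1.06 with CB-6644 and 1.43, 0.643 and 0.518 with DMSO. Both short-fragment libraries were the highest of their group there, and the groups overlapped. Its difference of 0.94 (SE 0.39, limma, adjusted p = 0.19) passed with the fragment-length term (adjusted p = 0.0024 by limma) and in the long-fragment libraries alone (0.99, adjusted p = 0.01 by limma). The fold at that site differed by 0.57 (SE 0.25, limma, adjusted p = 0.35), the largest at the locus. The strongest region outside promoters, 8.8 kb downstream over RPS19BP1, differed by 0.12 in pile-up (adjusted p = 0.69 by limma).

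ATF5, like ATF4 translated under stress and known for the mitochondrial stress response, had the family's only regions past the threshold in the pile-up, and both were higher with CB-6644. It lies at chr19:49928702-49933935 on the plus strand. Near all 8 genes 2 regions of 39 were higher and 0 lower by limma on the pile-up, against 5.04% and 5.42% of all regions tested, so the share that was higher was close to that of the genome. An intergenic region 36.7 kb downstream of ATF5 at chr19:49965641-49966190 had pile-ups of 0.75, 0.773 and 0.981 times the median peak with CB-6644 and 0.622, 0.393 and 0.536 with DMSO. The groups did not overlap, and the difference was 0.93 (SE 0.20, limma, adjusted p = 0.026). A region at the promoter of IL4I1, which encodes an amino acid oxidase, 32 kb upstream at chr19:49896851-49898068, had pile-ups of 1.59, 1.55 and 1.67 with CB-6644 and 1.38, 1.38 and 1.29 with DMSO. These did not overlap either, with a difference of 0.54 (SE 0.14, limma, adjusted p = 0.042).

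Local background was also higher with CB-6644 at both of those regions, at 1.99 ± 0.399 against 1.05 ± 0.0928 and at 5.86 ± 0.228 against 3.93 ± 0.167 times the genome background (SD, n = 3). Their fold differences were 0.32 (SE 0.14) and 0.11 (SE 0.14), with adjusted p of 0.36 and 0.76 by limma, and the part of the local background in the calls was not tested. Leaving out 1 library at a time kept the intergenic region past the threshold in 3 of 6 fits, with differences from 0.74 to 1.06, and the IL4I1 region in 1 of 6, with differences from 0.50 to 0.59. The intergenic call was lost without CB-6644 replicate 3, DMSO replicate 2 or DMSO replicate 3 (adjusted p = 0.082, 0.11 and 0.071 by limma), and the IL4I1 call held only without CB-6644 replicate 2 (adjusted p = 0.032 by limma). Under the replicate block they stood at adjusted p of 0.048 and 0.12 by limma, and the IL4I1 call was also lost with median centring (0.052) and with an intensity trend (0.068).

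The 2 summits are printed because they are the regions near the family that passed. They lie on plus-strand hg38 at chr19:49965849-49965929 and chr19:49897122-49897202, and hold no capitalized match.
ATF5 downstream: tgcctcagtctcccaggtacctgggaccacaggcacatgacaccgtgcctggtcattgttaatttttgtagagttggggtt
ATF5 upstream, IL4I1: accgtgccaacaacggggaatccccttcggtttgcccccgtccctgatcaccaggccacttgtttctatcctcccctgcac

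The ATF5 promoter itself, chr19:49929063-49930197, is shared with IL4I1 and NUP62 and did not separate the groups. Its pile-up was 3.98, 3.95 and 4.19 times the median peak with CB-6644 and 5.49, 4.57 and 3.95 with DMSO (difference 0.02, SE 0.14, limma, adjusted p = 0.95). Percentiles were 90.1, 87.9 and 88.8 with CB-6644 and 93, 91.3 and 89.8 with DMSO. The strongest region outside promoters, 38.6 kb upstream in an intron of IL4I1, overlapped between groups (0.31 in pile-up, adjusted p = 0.46 by limma).

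CEBPA, the CEBP factor of myeloid, liver and fat cell differentiation, had no promoter region in any library, as had 27.6% of all gene symbols. Its window held a single weak region, 41.5 kb downstream at chr19:33260989-33261113, called in CB-6644 replicate 2 at a percentile of 5.49 and in DMSO replicate 1 at 0.518. Both are the short-fragment libraries.

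CEBPD, a CEBP factor of the acute phase and of inflammatory signalling, had the weakest promoter among the 7. Its promoter region peaked 832 bp upstream of the start site, with pile-ups of 0.432, 0.545 and 0.327 times the median peak with CB-6644 and 0.595, 0.714 and 0.5 with DMSO. Values met at the edge, with CB-6644 replicate 2 above DMSO replicate 3. The difference was -0.29 (SE 0.25, limma, adjusted p = 0.56), the fold differed by -0.32 (SE 0.15, limma, adjusted p = 0.37), and percentiles were 16.3, 28.5 and 9.44 with CB-6644 and 34.1, 39.4 and 28.2 with DMSO. The window held 1 other region, within the same promoter, called in 1 library.

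Counted over the family, 39 of the 66 regions were called in all 6 libraries, or 59.1%, against 47.2% of all regions. Among the 24 at promoters of any protein-coding gene 19 were, or 79.2%, against 75.4% of all promoter regions. Among the 42 elsewhere 20 were, or 47.6%, against 39.4% of all regions outside promoters. Of the 39, 9 had percentiles lower in every CB-6644 library than in any DMSO library and 1 had them higher, which is 23.1% and 2.56%, against 24.6% and 5.61% of all 42089 regions. Ranked among the shared regions only, 6 were lower and 4 higher, against 13.4% and 13.3%. By these counts the regions near the family as a whole behaved much like the rest of the genome. The 9 lower regions lay near ATF3 (4), ATF4 (2), CEBPB (2) and DDIT3 (1), and the higher one near ATF5.

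By limma on fold enrichment, 0 of the 39 regions were lower and 0 higher, against 0.461% and 0.513% of all regions. At an unadjusted p under 0.05 there was 1 region, the coding exon of CEBPB, which is 2.56% against 14.7% of all regions, and the smallest adjusted p was 0.17. The median log2 fold difference was 0.05 near the members and 0.02 over all regions. On the pile-up 7 of 39 regions had an unadjusted p under 0.05, or 17.9% against 24% of all regions, and the median was 0.04 near the members against 0.01. Fold and pile-up differences had the same sign in 29 of 39 regions, or 74.4% against 74.3% of all regions.

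**Figure D3:**
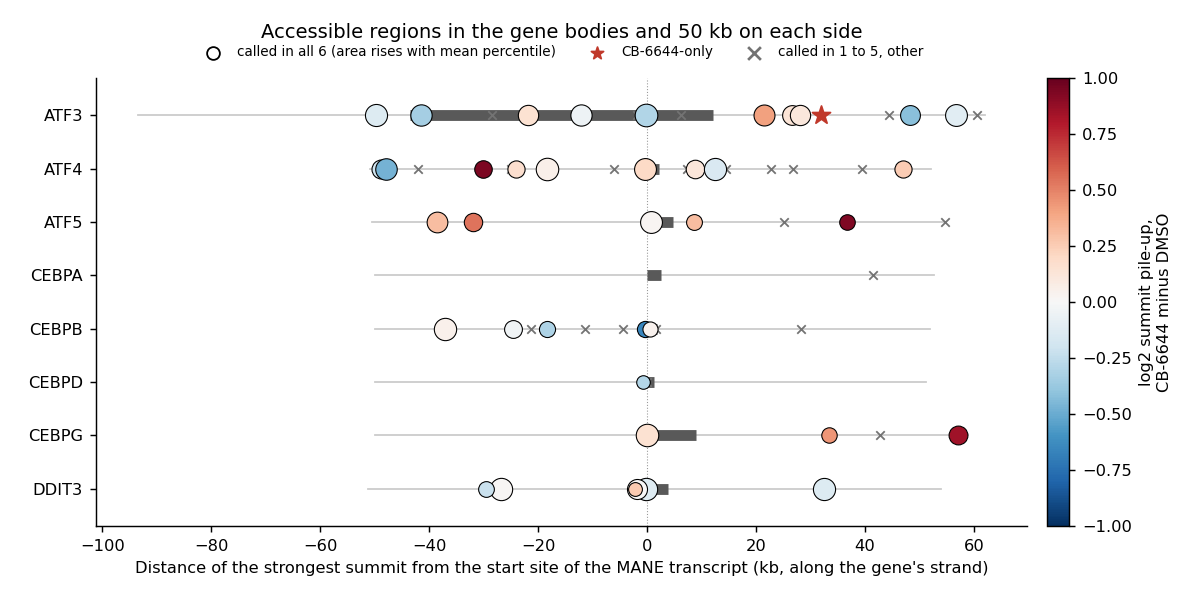
Regions around each gene by the distance of the strongest summit from the start site of the MANE (reference) transcript, in kb along the gene's strand; dark bars are gene bodies and thin lines the windows. Circles are regions called in all 6 libraries, coloured by the log2 pile-up difference (red is higher with CB-6644) with an area that rises with the mean percentile, the star is the CB-6644-only region and crosses are regions called in 1 to 5 libraries. Red circles lie near ATF5, CEBPG and ATF4 and blue ones near ATF3, ATF4 and CEBPB, and CEBPA has a single cross.

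**Figure D4:**
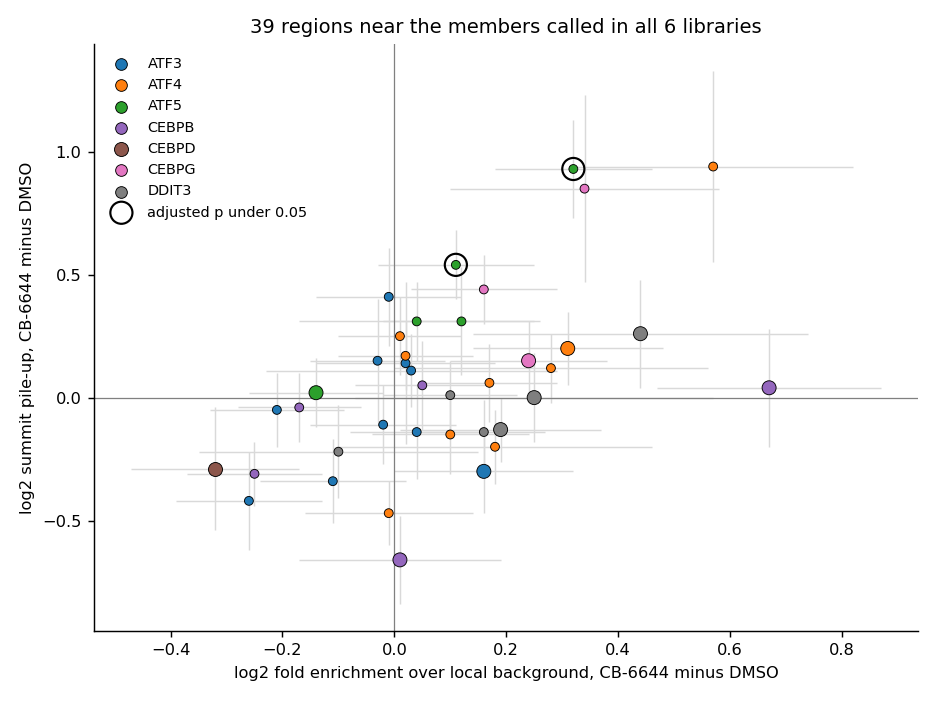
Difference in log2 fold enrichment (horizontal) against difference in log2 summit pile-up (vertical), CB-6644 minus DMSO, for the 39 regions called in all libraries, with SE from limma. Larger circles are the member's own promoter regions and rings mark adjusted p under 0.05 on the pile-up, which are the 2 regions near ATF5; CEBPB upstream sits lowest at -0.66 and its coding exon region farthest right at 0.67.

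Peaks in the windows numbered 46, 69 and 48 in CB-6644 replicates 1, 2 and 3 and 66, 53 and 47 in DMSO replicates 1, 2 and 3. The short-fragment library had the most in each group. The means were 54.3 ± 12.7 and 55.3 ± 9.71 (SD, n = 3 libraries; exact permutation test, two-sided, p = 0.9). Per 1000 peaks of the list they were 0.852 ± 0.0974 and 0.766 ± 0.0618 (exact permutation test, two-sided, p = 0.3).

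The other genes of the pathway were read at their promoters in the same way. Among 26 other bZIP factors every promoter was called in all libraries, and 0 passed limma on the pile-up in either direction. Percentiles were lower in each CB-6644 library for 4 of the 26, namely BATF3, JDP2, NFE2L2 and DBP, and 17.1% of all promoters did the same. Among 13 upstream genes, such as the eIF2 kinases, 13 promoters were called throughout, 2 had lower percentiles (EIF2AK1, the heme-regulated kinase, and EIF2S1, its substrate), which is near that share, and 0 passed limma. The medians of the log2 pile-up difference were 0.02 and -0.05, against -0.13 for the 7 member promoters and 0.01 for all promoters.

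Targets of ATF4 and DDIT3 held 2 promoters that were lower in pile-up, of 20 tested, against 0.905% of all promoters. Of 22 targets 20 had a promoter region in every library, NUPR1 had none and STC2 had one in 2 libraries. SHMT2, the mitochondrial serine hydroxymethyltransferase, had promoter pile-ups of 1.11, 1.23 and 1.35 times the median peak with CB-6644 and 3.41, 3.14 and 3.05 with DMSO (-1.12, SE 0.15, limma, adjusted p = 0.0044), while its fold differed by -0.44 (adjusted p = 0.17 by limma). PSAT1, an aminotransferase of serine synthesis, stood at 5.57, 7 and 5.54 with CB-6644 and 12, 8.98 and 8.86 with DMSO (-0.56, SE 0.14, limma, adjusted p = 0.042), and its fold differed by -0.06 (adjusted p = 0.87 by limma). In both genes every CB-6644 library was below every DMSO library. Both calls rest on the pile-up test added after the data were seen, in a list chosen with earlier results known. Alternative fits and fits with 1 library left out are not given for them. The other 18 promoters passed in neither direction, and percentiles were lower throughout for 4 of 20 and higher for 1, ERO1A, against 17.1% and 1.84% of all promoters. The list's median was -0.09. PHGDH, which catalyses the first step of serine synthesis, stood at -0.09 (adjusted p = 0.79 by limma), and MTHFD2, a mitochondrial folate enzyme, at -0.08 (adjusted p = 0.82 by limma). Of the 7 plasma cell marker promoters called in all libraries, 1 was lower in pile-up and 0 higher, against 0.905% and 0.724% of all promoters. That was CD38 (-0.60, SE 0.15, limma, adjusted p = 0.038), and its fold differed by 0.05 (adjusted p = 0.93 by limma). Alternative fits are not given for CD38 either. Percentiles of these markers were lower throughout for 3 of 7 and higher for 0, against 17.1% and 1.84%. Their median pile-up difference, -0.24, was below the -0.13 of the member promoters.

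**Figure D5:**
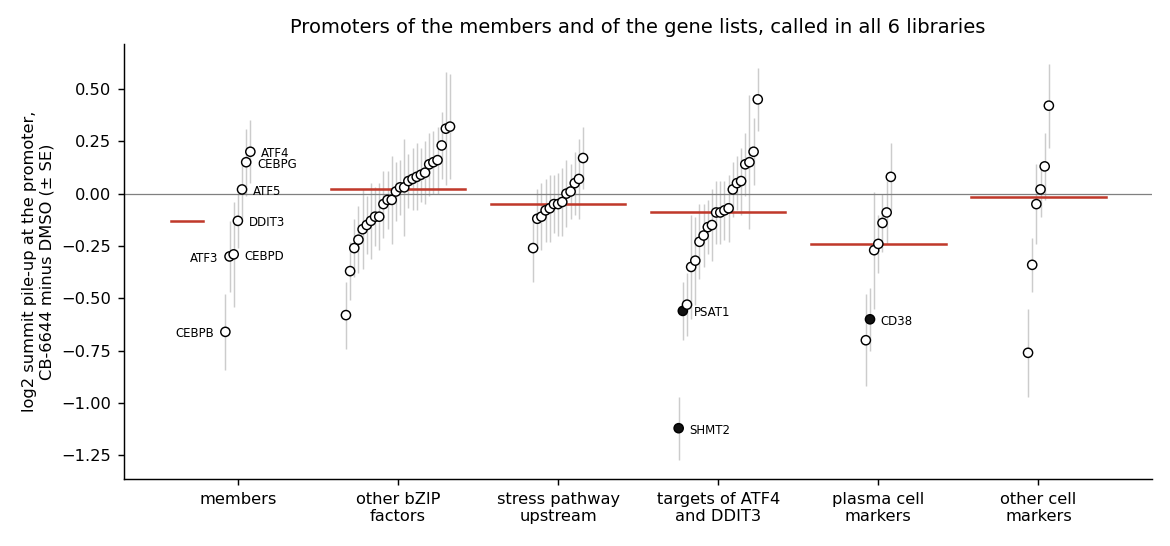
Log2 pile-up difference at the promoter, CB-6644 minus DMSO, with SE, for the members and each gene list, over promoters called in all 6 libraries. Filled points have an adjusted p under 0.05 by limma and red bars are list medians; SHMT2 and PSAT1 among the targets and CD38 among the plasma cell markers are the filled points, and the member median is -0.13.

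By mean absolute difference of promoter percentile over the 6 libraries, among 58 promoters of the 3 pathway lists, the gene most like each member was CREB3 for ATF3 (0.847 points), XBP1 for CEBPG (0.872), DELE1 for DDIT3 (0.989), EIF2AK1 for ATF5 (1.58), ATF1 for ATF4 (1.9), JDP2 for CEBPD (5.97) and ATF6 for CEBPB (8.58). CEBPB thus had the most distant nearest gene and CEBPD the next, and these 2 had the lowest promoter percentiles of the members. Whether the distance follows from the height of the percentile was not tested.

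Consensus letters were searched for on either strand, up to 100 bp to each side of a region's strongest summit. The ATF-CEBP consensus TGATGNAA was present in 4 of 66 regions near the members, or 6.06%, against 3.98% of all regions. The 4 were the ATF3 promoter, a region called in 1 library 44.4 kb downstream of it, the 3′ end of CEBPB and the MARS1 promoter near DDIT3, 2 of which were called in all 6 libraries. The CEBP consensus TTNNGNAA, whose letters can overlap the former, was present in 24.2% against 33.6%, the AP-1 consensus TGANTCA in 13.6% against 10.5%, and CCAAT in 34.8% against 21.5%. At promoters CCAAT was present in 9 of 24 regions near the members, or 37.5%, and in 24.3% of all promoter regions. The E-box CACGTG was present in 2 of 66, or 3.03%, against 4.53% of all regions. The ER stress element was present in none, against 0.0235% of all regions. The core TGACGT of the CRE was present in 3 of 66, or 4.55%, against 3.69%. These are matches of letters, described without a test, and say nothing of binding.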

How the data were processed

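The authors aligned Omni-ATAC reads to hg38 with Bowtie2 2.4.2 and called peaks with MACS3 3.0 on each library, versions being those of the submitters' processing notes; caller settings are not given in the sources used here. Each deposited peak carries a fold enrichment, the ratio of the pile-up at its summit to the local background. The -log10 p-value and -log10 q of each summit and the peak score are likewise the deposited values of the authors' caller, and the score was not analysed. The authors tested read counts with edgeR, which the lists do not allow.

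Peaks of the autosomes and sex chromosomes were merged, and the strongest peak by -log10 p stood for a library in a region. Pile-up and local background were solved from fold, as (pile-up + 1)/(background + 1), and the Poisson p-value, which matched for 100.00% of peaks in every list. Both log2 values were quantile-normalized over the regions called in all 6 libraries and fitted with limma 3.58.1 in R 4.3.3, with no pseudocount and a threshold of 0.05. The pile-up fit, the fragment-length term and the ranking among shared regions were added after the data were seen. The limma code was also run on simulated data. The outcome is not given here, so that run does not show whether the fits find differences of the size reported. Annotation was GENCODE 44. Lists give no read totals, so precision rests on 3 libraries a group. The members, lists and tests were chosen with earlier results of these data known. Regions named were each member's strongest promoter region and strongest region outside promoters, group-only regions, and those past the threshold or, with none, the one with the largest fold difference; others were chosen after their values were seen. Tables and plots were made with pandas 2.3.3, scipy 1.17.1 and matplotlib 3.10.9 under Python 3.11.15. Alternatives covered thresholds, list lengths, windows, merging, normalization, blocks and each library left out.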

Additional observations from a re-analysis of the deposited data

How the results depend on the processing

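Of 235 recomputed values, 180 counted as unchanged, 48 moved further and 7 changed sign. Unchanged meant within 1.5 times for counts and within the spread between libraries for the median. For promoter percentile differences it meant within that spread with the same sign, and for peaks per library the same sign of the difference. The number of member promoters called in all libraries stayed at 7, and the median log2 fold difference near the members ran from 0.01 to 0.14 as single libraries were left out. No cause was tested for the changes that follow. Where a count stands without the share of all regions under its setting, it is not a result about the members. With lists trimmed to an equal number of top peaks, CB-6644-only regions numbered 0, percentiles were lower in 5 and higher in 5 regions, 1 region was lower in pile-up, and peaks per library differed by 4 (exact permutation test, p = 0.7) instead of -1. In the long-fragment libraries alone, where fewer libraries have to separate, 19 of 40 regions had lower and 7 higher percentiles (43.7% and 14.3% of all regions), 2 were higher in fold (2.06%) and 4 in pile-up (7.24%) by limma. With the fragment-length set as a term, limma called 2 of 39 regions higher in fold (3.40% of all regions), and 2 lower and 5 higher in pile-up (10.6% and 9.96%). A flank of 20 kb left 22 regions called in all libraries, 0 with higher percentiles and 0 higher in pile-up; a flank of 100 kb held 70, with 17 lower percentiles and 1 DMSO-only region, as did a rule of 2 of 3 libraries (1). Percentiles of fold gave 5 lower and 0 higher regions, and turned the promoter differences of ATF3 and DDIT3 to 2.26 and 3.89 points, with CEBPB at -2.93, ATF4 at 9.61, ATF5 at -7.83 and CEBPG at 8.02. Ranking among shared regions gave 4 higher, with promoter differences of -16.9 for CEBPB, -3.79 for CEBPD and 5.16 for ATF4. Median centring and an intensity trend each called 1 region lower and 1 higher in pile-up, and regions called in 2 of 3 libraries of each group gave 1 higher.

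Leaving out 1 library at a time gave 0 to 1 DMSO-only regions, 9 to 19 lower percentiles (19 without CB-6644 replicate 2, the short-fragment library), 1 to 5 higher percentiles (5 without DMSO replicate 1, 3 without CB-6644 replicate 1 and 2 without CB-6644 replicate 2 or DMSO replicate 2), and 0 to 3 regions higher in pile-up (0 without CB-6644 replicate 3, DMSO replicate 2 or DMSO replicate 3, and 1 without CB-6644 replicate 1 or DMSO replicate 1). Fewer libraries have to separate in these fits, and the shares of all regions are not given for them. These counts are therefore not results about the members. The difference in peaks per library ran from -8.33 to 4.33, and that of the CEBPG promoter from -0.244 (without DMSO replicate 3) to 1.96 points. Replicate numbers did not pair the libraries. This was read from correlations of each library's deviation from its group mean in log2 fold, over the shared regions. They were -0.477, -0.332 and 0.326 between same-numbered libraries, and the highest, 0.572, was between the short-fragment libraries. Deviations cancel within a group, so some of these correlations must be negative, and they are not correlations of the libraries themselves. With the replicate block limma called 0 regions in fold and 1 higher in pile-up. Read depth is not in the lists, so a missing peak cannot be told apart from a shallow library.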
